A study of Mus musculus with 10 samples.

Results

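The genes described here are 10 components of WNT signalling in mouse follicle cells, chosen by symbol: the ligands Wnt4 and Wnt2, the agonist Rspo1, the receptors Fzd1 and Fzd4, the secreted inhibitors Sfrp1 and Sfrp4, the relay protein gene Ctnnb1, the feedback gene Axin2 and the nuclear partner Lef1. All 10 were found among the 23234 gene symbols of the table, and each was followed through 10 RNA-seq libraries of 5 groups. Levels are in FPKM, a fragment number corrected for transcript length and library size, so they can be set side by side between genes. The groups were cumulus cells (granulosa cells attached to the oocyte) of C57BL/6 mice at 2 months with 3 libraries and at 10 months with 3 libraries, and mural granulosa cells (the cells along the follicle wall) of C57BL/6 mice at 2 months with 2 libraries. The other groups were whole cumulus-oocyte complexes, COC, of PMSG-primed mice aged 3 weeks, with 1 library from BDF1 mice and 1 from DBA/2 mice. BDF1 is the first-generation hybrid of C57BL/6 and DBA/2, so the COC differ from the other groups in strain, age and the presence of the oocyte at once. The protocol shared by all libraries names mice primed with eCG, another name for PMSG, as the source of mural cells, and a basic medium with milrinone, an inhibitor of phosphodiesterase. Whether cumulus donors were primed is not known from the sources at hand. Nothing in the labels ties replicates to separate animals. The p-values therefore speak only of the spread among these libraries, and that spread may be technical.

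WNT proteins are secreted lipid-modified ligands that bind Frizzled receptors together with the co-receptors LRP5 and LRP6. Binding stops a cytoplasmic destruction complex from degrading beta-catenin, which then enters the nucleus and works with TCF/LEF factors on target genes. R-spondins strengthen the signal by keeping Frizzled receptors at the cell surface, while SFRP proteins and some DKK proteins hold it back outside the cell. In the mouse, Wnt4 and Rspo1 are known for their part in forming the ovary, and beta-catenin for its part in granulosa cell growth and steroid production.

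The libraries were first checked against markers of the cells they could hold. All 5 granulosa markers were at 1 FPKM or more in every library. The summed level of 7 oocyte markers differed widely between cumulus libraries. At 2 months it was 158 FPKM in replicate 1, 0.720 in replicate 2, where 5 of the 7 were listed at 0, and 838 in replicate 3, and at 10 months it was 113 to 263. In mural cells it was 107 and 14.5, and in COC 2370 and 2262. The summed level of 5 mural markers (Lhcgr, Cyp11a1, Cyp19a1, Star and Nppc) was 1895 and 3595 FPKM in mural cells, against 64.8 to 90.4 in the younger cumulus group. In cumulus cells at 10 months it was 87.0, 377 and 980 in replicates 1 to 3, and Cyp11a1 alone was 255 and 773 of the last 2 sums. Replicates 2 and 3 stood apart from the other cumulus libraries in Lhcgr, Cyp11a1 and Star, whereas Nppc was at 31.0 and 16.1 FPKM there, against 21.3 to 34.1 at 2 months and 150.3 and 147 in mural cells. Cyp19a1 was at 65.8 and 46.8 FPKM, against 30.3 to 40.01 at 2 months and 324 and 358 in mural cells. Results that touch these libraries are given library by library.

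**Figure D1:**
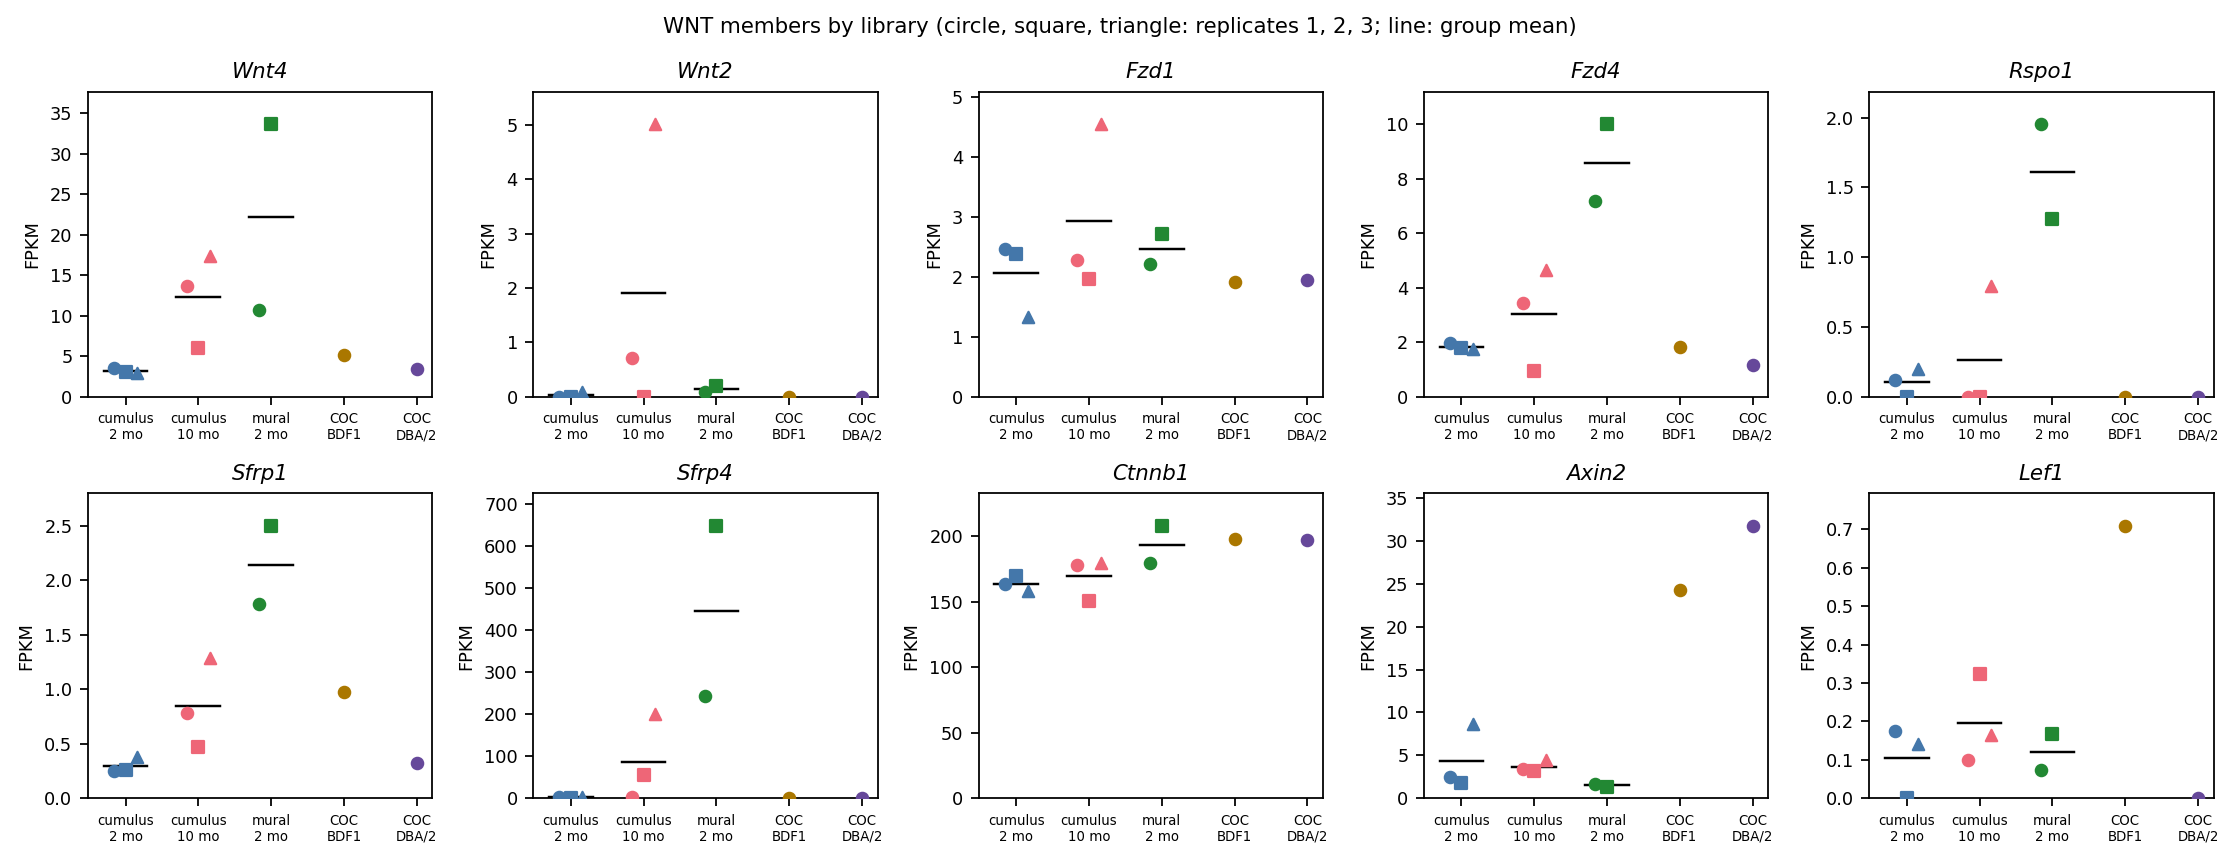
Levels of the 10 WNT genes in FPKM, 1 panel per gene, with 1 point per library, the 5 groups along the horizontal axis circles, squares and triangles for replicates 1 to 3 and a line for the mean of each group with replicates. Wnt4, Fzd4 and Sfrp4 had their highest library among the mural ones, Axin2 was highest in the COC, and Lef1 stayed below 1 FPKM in every library.

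The genes spanned a wide range of levels per length. Ctnnb1 lay between 150.4 and 208 FPKM and was the most abundant of the 10 in each library except 3, namely cumulus replicate 3 at 10 months and both mural libraries, where Sfrp4 exceeded it. Lef1 reached at most 0.709 FPKM. A linear model across genes (limma) covered the 12412 genes with a mean of at least 1 FPKM over the 8 C57BL/6 libraries, which took in Wnt4, Fzd1, Fzd4, Sfrp4, Ctnnb1 and Axin2. Each of these 6 had a mean above 1 FPKM in all 3 C57BL/6 groups. Sfrp1, Wnt2, Rspo1 and Lef1 fell short of the filter, with means of 0.966, 0.762, 0.542 and 0.143 FPKM over those libraries, and are described by their levels.

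In mural against cumulus cells at 2 months, 3 of the 6 tested genes passed an adjusted p of 0.05 and all 3 were higher in mural cells: the ligand Wnt4, the receptor Fzd4 and the secreted inhibitor Sfrp4. Of all 12412 tested genes 20.9% passed, 9.69% as higher and 11.2% as lower. The median log2 fold change of the 6 genes was 0.99, against -0.08 over all tested genes. The members were chosen with earlier results of these data known, so their share and median do not come from a set chosen blind. Mural levels lay wholly above the cumulus levels at 2 months for 4 of the 6 (Wnt4, Fzd4, Sfrp4 and Ctnnb1) and wholly below them for Axin2, a separation found in the higher direction for 25.6% and in the lower direction for 32.0% of all tested genes. In cumulus cells at 10 against 2 months, 0 of the 6 passed limma's test, as did 0 (0.0%) of all tested genes. At an unadjusted p under 0.05 the age comparison took in Wnt4 and Sfrp4, 2 of the 6, against 13.9% of all tested genes. Both comparisons use the same cumulus libraries at 2 months.

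Among the ligands, Wnt4 stood at 3.54, 3.01 and 2.92 FPKM in cumulus replicates 1 to 3 at 2 months. It was at 10.7 and 33.6 FPKM in the 2 mural libraries and at 13.6, 5.97 and 17.4 in cumulus cells at 10 months. The lowest mural library was above every cumulus library at 2 months, and so was the lowest library at 10 months, while mural cells and cumulus cells at 10 months overlapped. The group means were 3.16 ± 0.338 FPKM (SD, n = 3) at 2 months, 12.3 ± 5.81 (SD, n = 3) at 10 months and 22.1 ± 16.2 (SD, n = 2) in mural cells. Wnt4 rose in mural cells by a log2 fold change of 2.28 ± 0.52 (SE), with an adjusted p of 0.0209 by limma. It no longer passed without mural replicate 2 (log2 fold change 1.49, adjusted p 0.1505 by limma) or without cumulus replicate 2 at 2 months (adjusted p 0.0598). For age its log2 fold change was 1.57 ± 0.46 (SE), with a limma p of 0.00980 and an adjusted p of 0.247, which did not pass. In the COC it was at 5.10 FPKM in BDF1, above the cumulus libraries at 2 months, and at 3.46 in DBA/2, within their range.

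Wnt2, the other ligand, was close to the floor of the table except in 1 library. It was listed at 0 in 2 of 3 cumulus libraries at 2 months and at 0.0833 FPKM in the third, and at 0.0876 and 0.198 FPKM in mural cells. At 10 months it was at 0.712 FPKM, listed at 0, and at 5.01 FPKM in replicates 1 to 3. Both COC had it listed at 0. The level above 1 FPKM thus came from cumulus replicate 3 at 10 months alone. The cumulus libraries at 10 months overlapped both other C57BL/6 groups, and the mural libraries lay just above those of cumulus cells at 2 months.

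Rspo1, the R-spondin required for ovarian development in the mouse, was at 1.95 and 1.28 FPKM in mural cells. In cumulus cells at 2 months it was at 0.121 FPKM, listed at 0, and at 0.195, and at 10 months it was listed at 0 in replicates 1 and 2 and at 0.791 in replicate 3. Mural levels were above those of all 8 other libraries, and the COC had it listed at 0. With no filter on low values, Rspo1 entered the limma test and passed as higher in mural cells (adjusted p 0.0272), but it was above 1 FPKM in the mural libraries only.

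The Frizzled receptors differed from each other. Fzd4, whose loss in the mouse impairs the corpus luteum, was at 1.98, 1.78 and 1.74 FPKM in cumulus cells at 2 months and at 7.17 and 9.99 in mural cells. At 10 months it was at 3.45, 0.940 and 4.66 FPKM in replicates 1 to 3, and the COC held 1.83 and 1.17. The mural libraries exceeded all 8 others, and the libraries at 10 months lay on both sides of those at 2 months. Fzd4 rose in mural cells by a log2 fold change of 1.74 ± 0.42 (SE), adjusted p 0.0256 by limma, with means of 8.58 ± 1.99 FPKM (SD, n = 2) against 1.84 ± 0.130 (SD, n = 3). Leaving out any 1 of these 5 libraries ended the call, with adjusted p-values of 0.0564 to 0.178 by limma. For age its log2 fold change was 0.37 ± 0.38 (SE), adjusted p 0.714 by limma.

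Fzd1, a receptor of the same family, was at 2.46, 2.38 and 1.34 FPKM in cumulus cells at 2 months and at 2.21 and 2.72 in mural cells. Its levels at 10 months were 2.28, 1.96 and 4.55 FPKM, and the COC held 1.91 and 1.95. The 3 C57BL/6 groups overlapped, and the COC lay within the range of the cumulus libraries. Its log2 fold change was 0.20 ± 0.32 (SE) in mural cells (adjusted p 0.697 by limma) and 0.33 ± 0.29 (SE) for age (adjusted p 0.664), and neither passed. Quantile normalization turned the mural value to -0.041.

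The secreted inhibitor Sfrp4, a Frizzled-related protein known in rodents from luteinizing granulosa cells, had the widest range of the 10. Cumulus replicates 1 to 3 at 2 months held 3.94, 1.199 and 2.56 FPKM. The mural libraries held 245 and 649 FPKM. At 10 months the replicates held 2.77, 54.4 and 199.6 FPKM, so replicate 1 was within the range of the younger libraries while replicates 2 and 3 were far above it. The COC held 1.54 and 1.57 FPKM. The mean was 447 ± 286 FPKM (SD, n = 2) in mural cells against 2.57 ± 1.37 (SD, n = 3) in cumulus cells at 2 months, and Sfrp4 rose by a log2 fold change of 6.88 ± 1.43 (SE), adjusted p 0.0159 by limma. The call was lost without mural replicate 1 (adjusted p 0.0654 by limma), mural replicate 2 (0.131) or cumulus replicate 2 at 2 months (0.0508), at log2 fold changes of 6.18 to 7.59 over all alternatives. For age the mean of 85.6 ± 102 FPKM (SD, n = 3) gave a log2 fold change of 3.36 ± 1.28 (SE), with a limma p of 0.0311 and an adjusted p of 0.313, which did not pass. The age value was 2.096 without replicate 3 at 10 months and 4.96 without replicate 1.

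Sfrp4, Nppc and Cyp19a1 each had their highest levels in the mural libraries. Among the cumulus libraries they did not follow the same order. In cumulus replicate 3 at 10 months, which had the most Sfrp4 of the cumulus libraries, Nppc was at its lowest of all 10 libraries. The gene most like Sfrp4 over the 10 libraries, by Pearson correlation of log2(FPKM + 1), was Cldn3, a tight junction claudin (r = 0.996). Cldn3 was low throughout, at 3.48 and 4.28 FPKM in mural cells and 0.214, 1.72 and 2.61 at 10 months. In the remaining libraries it was listed at 0 or at 0.186 FPKM. Next came Star, which brings cholesterol into mitochondria (r = 0.989), and Cyp11a1, the enzyme that opens steroid synthesis from cholesterol (r = 0.987). Libraries of a group share their cells, so these values are descriptions over 10 points. Cyp11a1 was at 9.74 to 18.0 FPKM in cumulus cells at 2 months, at 15.7, 255 and 773 in replicates 1 to 3 at 10 months, and at 1067 and 2460 in mural cells. A ratio chosen after the values were seen set Sfrp4 at 21.9%, 8.66% and 26.3% of Cyp11a1 in cumulus cells at 2 months. The ratio was 17.6%, 21.3% and 25.8% at 10 months and 22.9% and 26.4% in mural cells, so the libraries with high Sfrp4 were those with high Cyp11a1. In the COC it was 15.2% and 5.51%. For Wnt4 the levels did not go together in this way. Cumulus replicate 1 at 10 months had 13.6 FPKM of Wnt4 with 15.7 of Cyp11a1, and replicate 2 had 5.97 with 255. The part of mural cells in the levels of Sfrp4 at 10 months was not tested.

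**Figure D2:**
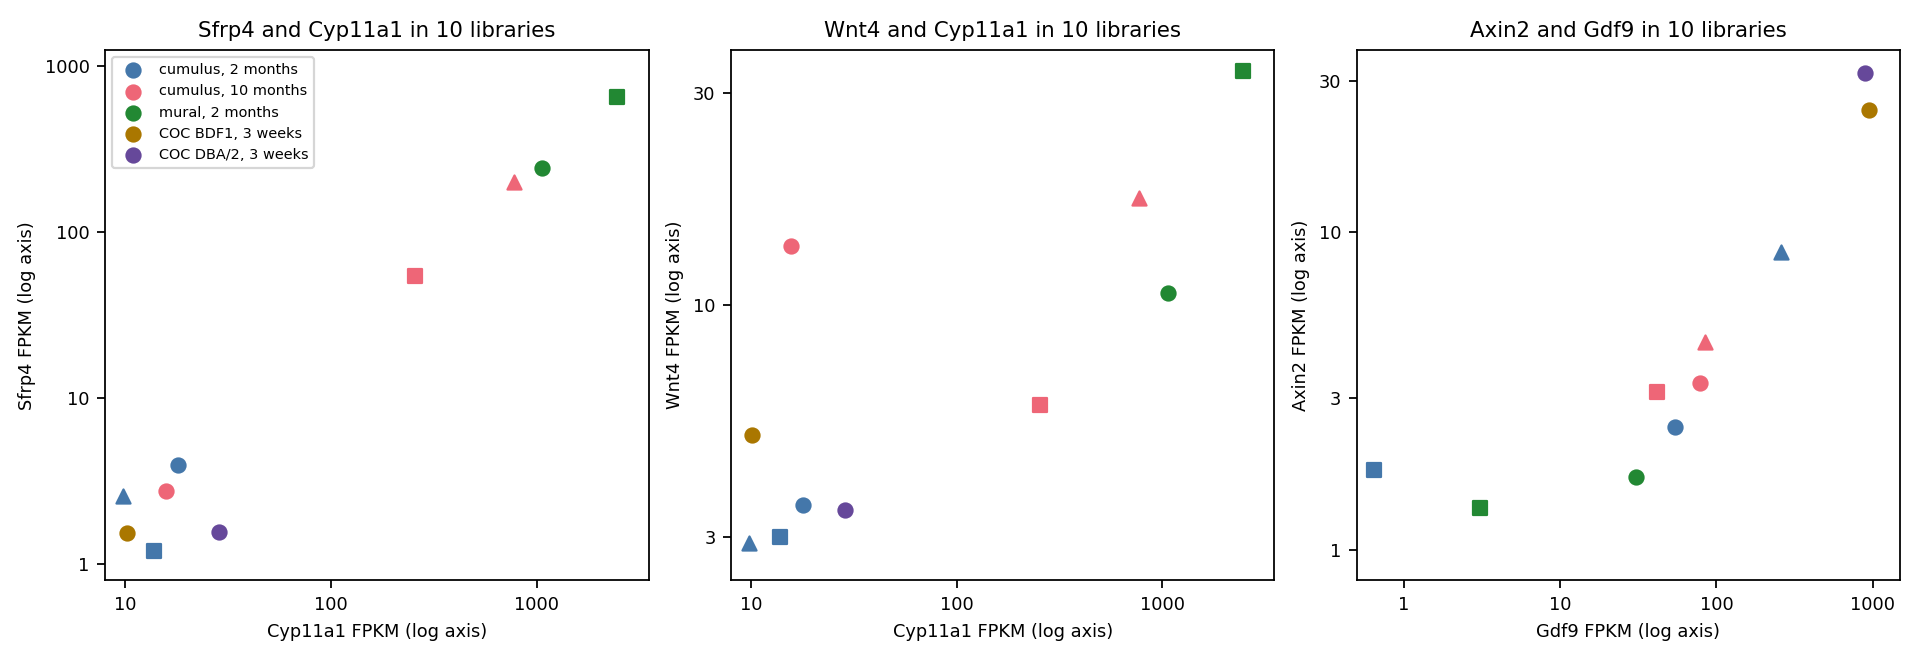
Sfrp4 against Cyp11a1 (left), Wnt4 against Cyp11a1 (middle) and Axin2 against the oocyte gene Gdf9 (right), in FPKM on log axes, with 1 point per library, colours for the 5 groups and circles, squares and triangles for replicates 1, 2 and 3. Sfrp4 was at 17.6 to 26.4% of Cyp11a1 in the mural and older cumulus libraries. It was at 8.66 to 26.3% in the younger cumulus libraries and at 15.2 and 5.51% in the COC. Wnt4 was at 13.6 FPKM in the library at 10 months with 15.7 FPKM of Cyp11a1. Axin2 was highest in the COC, where Gdf9 was at 951 and 894 FPKM.

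Sfrp1, another Frizzled-related inhibitor, was at 1.79 and 2.50 FPKM in mural cells and at 0.254, 0.258 and 0.383 in cumulus cells at 2 months. Cumulus cells at 10 months held 0.787, 0.467 and 1.29 FPKM, and the COC 0.977 and 0.327. The 3 C57BL/6 groups did not overlap, with the mural libraries at the top and the cumulus libraries at 2 months at the bottom. With no filter, Sfrp1 passed in mural against cumulus cells at 2 months with a log2 fold change of 1.27 and an adjusted p of 0.0129 by limma. Its levels in cumulus cells at 2 months were all below 1 FPKM, where precision is unknown. For age the same setting gave 0.49 and an adjusted p of 0.405.

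Summed markers of theca and stroma, endothelial and immune cells were also higher in mural cells than in cumulus cells at 2 months. At 10 months these sums were higher too, except the endothelial sum of replicate 1. The summed level of 8 theca and stroma markers was 102 and 150.0 FPKM in mural cells, 22.7 to 48.2 in cumulus cells at 10 months and 6.69 to 7.35 in those at 2 months. Cyp17a1 alone made up 61.5 and 63.0 FPKM of the mural sums. Single markers differed: the stroma marker Pdgfra was at 0.658 and 1.22 FPKM in mural cells and 0.839 to 2.25 in cumulus cells at 2 months. The immune marker Cd68 was at 2.29 and 2.82 FPKM in mural cells and 1.47 to 3.86 in cumulus cells at 2 months. The 6 endothelial markers summed to 1.60 to 4.76 FPKM at 2 months, 4.26 to 19.7 at 10 months, and 21.0 and 54.4 in mural cells. The 7 immune markers found in the table summed to 1.93 to 5.63, 14.4 to 39.3, and 10.8 and 37.4 FPKM in the same order. In cumulus cells at 2 months 2 to 3 of the 8 theca and stroma markers were at 1 FPKM or more, against 7 and 8 in the mural libraries. The 5 erythroid markers summed to 13.3 to 18.3 FPKM at 2 months and 20.1 to 96.4 at 10 months. Mural cells held 104 and 47.6 FPKM. Of these markers, Hba-a1 was at 61.2 and 46.3 FPKM in mural cells and at most 2.29 in cumulus cells at 2 months. Alas2 went the other way, at 2.36 and 1.17 against 13.3 to 16.1 FPKM. Surface epithelium markers also differed between these groups and are given with Wnt2 below. The part of all these cells in the levels of Wnt4, Fzd4, Sfrp1, Sfrp4 and Rspo1 was not tested. In bulk RNA, fewer cells of a type and less RNA per cell cannot be told apart.

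Ctnnb1, which encodes beta-catenin, varied little. It was at 164, 169 and 159 FPKM in cumulus cells at 2 months, at 178, 150.4 and 179.6 at 10 months, and at 179 and 208 in mural cells. Both mural libraries were above the 3 cumulus libraries at 2 months, while the age groups overlapped. Its log2 fold change was 0.24 ± 0.14 (SE) in mural cells (adjusted p 0.276 by limma) and 0.04 ± 0.13 (SE) for age (adjusted p 0.926), and neither passed. The COC held 198 and 197 FPKM. The genes most like Ctnnb1 were Ttc28, Chfr and Mfsd4 (r = 0.957, 0.952 and 0.949 over 10 libraries).

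Axin2, a scaffold of the destruction complex that beta-catenin itself switches on, was highest in the COC, at 24.2 FPKM in BDF1 and 31.7 in DBA/2. Cumulus cells at 2 months held 2.43, 1.79 and 8.64 FPKM, those at 10 months 3.35, 3.14 and 4.50, and mural cells 1.69 and 1.35. The mural libraries lay below all 8 others, and among cumulus libraries replicate 3 at 2 months stood above the rest. With 1 library per strain the COC were not tested. In mural against cumulus cells at 2 months the log2 fold change of Axin2 was -0.84 ± 0.49 (SE), adjusted p 0.252 by limma, and it was -0.30 without cumulus replicate 3. For age it was 0.03 ± 0.43 (SE), adjusted p 0.985 by limma, and changed sign under 4 alternatives.

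Axin2 went with oocyte transcripts. The oocyte growth factor gene Gdf9 was at 54.4, 0.647 and 261 FPKM in cumulus replicates 1 to 3 at 2 months, at 41.7 to 84.5 at 10 months, at 30.6 and 3.07 in mural cells, and at 951 and 894 in COC. The cumulus library with the most Gdf9 was thus the one with the most Axin2. In replicate 2 at 2 months, where none of the 7 oocyte markers reached 1 FPKM, Axin2 was still at 1.79 FPKM. The genes most like Axin2 were Rassf5, Mael and Meis2 (r = 0.992, 0.992 and 0.991 over 10 libraries), and Mael, a germ cell gene of transposon silencing, was listed at 0 in cumulus replicate 2 at 2 months and at 22.0 and 23.1 FPKM in COC. The part of the oocyte in the Axin2 level was not tested, and in the COC it cannot be told apart from strain, age and priming.

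Lef1, a nuclear partner of beta-catenin, was below 1 FPKM everywhere. Its highest level was 0.175 FPKM in cumulus cells at 2 months, where 1 library had it listed at 0, and 0.323 at 10 months. Mural cells held 0.0743 and 0.168 FPKM and the BDF1 complex 0.709, and the DBA/2 complex had it listed at 0. The groups overlapped. Tcf7, a factor of the same family, had levels of 55.6, 63.9 and 45.5 FPKM for cumulus replicates 1 to 3 at 2 months, and of 24.0 and 22.7 FPKM for the mural libraries, with no overlap. It made up 54.4 to 80.4% of the summed level of Tcf7, Tcf7l1, Tcf7l2 and Lef1 in each library.

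The promoters of Wnt4 and Fzd4, which rose in mural cells, and of Axin2, which did not pass, are shown because they are the upstream windows of the genes on which the comparisons turn. They come from RefSeq on build GRCm38.p6, from 250 bases before to 50 bases after the annotated start, all on the plus strand, at chr4:137277385-137277684 for Wnt4, chr7:89404116-89404415 for Fzd4 and chr11:108920099-108920398 for Axin2. No base is in capitals because no searched motif was found.
Wnt4: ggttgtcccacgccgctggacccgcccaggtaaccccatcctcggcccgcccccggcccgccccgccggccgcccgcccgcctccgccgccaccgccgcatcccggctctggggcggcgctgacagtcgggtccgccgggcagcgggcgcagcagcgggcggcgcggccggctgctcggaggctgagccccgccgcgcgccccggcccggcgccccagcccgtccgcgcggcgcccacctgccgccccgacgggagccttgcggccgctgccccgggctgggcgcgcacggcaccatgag
Fzd4: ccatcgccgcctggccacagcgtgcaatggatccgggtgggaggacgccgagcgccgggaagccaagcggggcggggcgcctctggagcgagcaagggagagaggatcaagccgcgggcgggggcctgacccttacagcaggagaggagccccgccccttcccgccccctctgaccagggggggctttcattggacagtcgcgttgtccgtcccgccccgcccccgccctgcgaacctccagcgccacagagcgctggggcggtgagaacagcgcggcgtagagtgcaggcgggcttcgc
Axin2: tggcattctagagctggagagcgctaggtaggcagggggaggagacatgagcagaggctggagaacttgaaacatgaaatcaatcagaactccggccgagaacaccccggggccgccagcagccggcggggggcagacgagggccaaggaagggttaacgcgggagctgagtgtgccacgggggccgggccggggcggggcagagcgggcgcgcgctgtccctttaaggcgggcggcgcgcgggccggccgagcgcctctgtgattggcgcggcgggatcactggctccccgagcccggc
The Wnt4 window was 84.3% G or C with 51 CpG dinucleotides, the Fzd4 window 72.7% with 32 and the Axin2 window 70.0% with 31, against medians of 52.7% and 7 over 32851 promoters. The windows of 8 of the 10 genes, all but Sfrp1 and Sfrp4 (12 windows in all, as some genes have several starts) were searched on both strands. None held the TCF/LEF motifs CTTTGAT or CTTTGAA, of which at least 1 was in 8.65% of all promoters. Nor did any hold the cyclic AMP response motif TGACGTCA (1.79% of promoters) or the NR5A motif TCAAGGTCA (0.423%). At these shares, finding none in 12 windows, some of which overlap, is not rare. The absence therefore does not speak to control of these genes by TCF/LEF or the other factors. The TCF/LEF pair differ in their last base.

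The 10 genes were then set beside 89 genes of the pathway in 8 lists, which include them. Of these, 53 were tested, and 29 were below 1 FPKM in every library. In mural against cumulus cells at 2 months 9 of the 53 (16.98%) passed as higher and 10 (18.9%) as lower. Of all tested genes 9.69% passed as higher and 11.2% as lower. The median log2 fold change was -0.02 against -0.08 over all tested genes. The lists were chosen with earlier results of these data known, so these shares do not come from a set chosen blind. The 9 include Wnt10b and Wnt6, which entered the test only through their mural levels. When libraries were rescaled to the same sum, 13 passed as higher and 6 as lower, the median was 0.22, and that of all tested genes 0.15. That scaling moved the share of higher genes among all calls from 46.3% to 69.6%. Without mural replicate 2, 1 of 52 tested list genes passed, namely Frzb.

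Of 19 ligands, 12 were below 1 FPKM in every library and 4 were tested. In mural against cumulus cells at 2 months 3 passed as higher and 1 as lower, against 9.69% and 11.2% of all tested genes. The ligands higher besides Wnt4 were Wnt10b and Wnt6. Both reached the filter only through the mural libraries, with means of 0.697 and 0.538 FPKM over the 6 cumulus libraries, so they had to differ to be tested, and their calls are given as a description. Wnt10b was at 4.55 and 23.4 FPKM in mural cells against 0.0787 to 0.102 in cumulus cells at 2 months (log2 fold change 3.41, adjusted p 0.0149 by limma). Wnt6 had a mean of 3.64 ± 1.59 FPKM (SD, n = 2) against 0.294 ± 0.0632 (SD, n = 3), a log2 fold change of 1.80 and an adjusted p of 0.00897 by limma. Wnt5b, a ligand that mostly acts without beta-catenin, fell by 1.39 on the log2 scale, from 6.79 ± 2.32 FPKM (SD, n = 3) in cumulus cells to 1.93 ± 0.762 (SD, n = 2) in mural cells (adjusted p 0.0137 by limma). It was the most abundant ligand in each cumulus library at 2 months, with 52.9 to 66.4% of the summed ligand level, whereas Wnt4 led in both mural libraries with 42.6 and 48.3%. The summed ligand level was 25.0 and 69.6 FPKM in mural cells and 16.5 to 37.4 in cumulus cells at 10 months. It was 9.73 to 14.3 FPKM in those at 2 months and 12.3 and 7.82 in COC. Wls, which carries WNT proteins to the cell surface, rose from 12.2 ± 1.58 FPKM (SD, n = 3) to 31.1 ± 0.785 (SD, n = 2), a log2 fold change of 1.29 (adjusted p 0.0250 by limma). Leaving out any 1 of the 5 libraries compared ended this call, with adjusted p-values of 0.0541 to 0.139.

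Among 13 tested receptors and co-receptors 3 (23.1%) passed as higher and 1 (7.69%) as lower, against 9.69% and 11.2% of all tested genes. Their median log2 fold change was 0.17. Besides Fzd4, the receptors Fzd2 and Fzd8 were higher in mural cells. Fzd2 was at 11.3 ± 2.08 FPKM (SD, n = 2) against 3.80 ± 0.865 (SD, n = 3), a log2 fold change of 1.37 (adjusted p 0.0178 by limma). Fzd8 was at 5.44 ± 0.216 against 2.70 ± 0.283 FPKM (SD), a log2 fold change of 0.80 (adjusted p 0.0265 by limma). Without mural replicate 1, mural replicate 2 or cumulus replicate 2 at 2 months neither passed (adjusted p 0.0578 to 0.122 for Fzd2 and 0.0708 to 0.142 for Fzd8), and Fzd8 did not pass without cumulus replicate 1 (0.0710). The co-receptor Lrp5 fell by 1.29 on the log2 scale, from 77.7 ± 12.3 FPKM (SD, n = 3) in cumulus cells to 30.9 ± 1.47 (SD, n = 2) in mural cells (adjusted p 0.0104 by limma). In the R-spondin branch 1 of 6 tested genes passed, as lower, against 11.2% of all tested genes. This was Lgr6, a receptor for R-spondins, at 4.91 to 5.25 FPKM in the younger cumulus libraries, 2.37 to 3.67 in the older ones and 1.18 and 0.940 in mural cells. It fell by 1.56 on the log2 scale in mural cells (adjusted p 0.00486 by limma). The COC held 12.1 and 15.7 FPKM of Lgr6, above every other library, and the cumulus library without oocyte markers at 1 FPKM held 4.91.

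Of 13 secreted inhibitors, 8 were below 1 FPKM in every library and 3 were tested. Of the 3, 2 passed as higher in mural cells, against 9.69% of all tested genes. Frzb, an SFRP family member, passed as higher beside Sfrp4, at 11.7 and 12.6 FPKM in mural cells against 0.944 to 1.17 in cumulus cells at 2 months, a log2 fold change of 2.67 (adjusted p 0.00195 by limma). The mural libraries lay above all others for Frzb, and the COC held 3.23 and 8.69 FPKM. Dkk3 had the highest level of the 13 in cumulus cells at 2 months, where the summed level was 9.39 to 14.5 FPKM. It made up 44.6 to 74.7% of that sum, and whether it holds back WNT signals in these cells was not tested. The sum was 265 and 674 FPKM in mural cells, with 92.3 and 96.2% from Sfrp4, and 12.4, 65.3 and 211 in replicates 1 to 3 at 10 months.

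**Figure D3:**
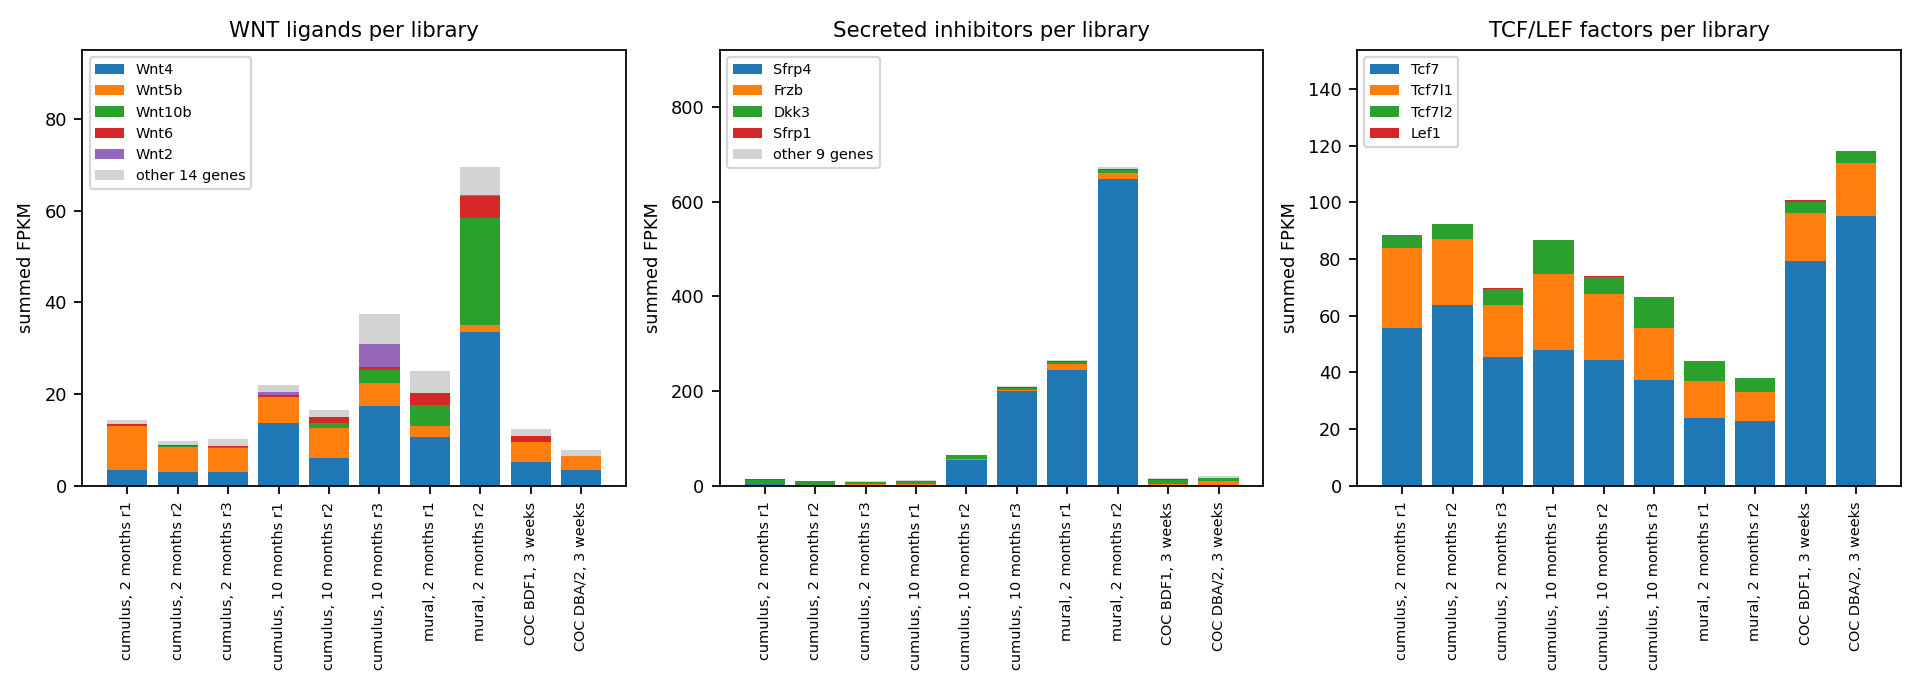
Stacked bars of summed FPKM per library for the WNT ligands (left), the secreted inhibitors (middle) and the TCF/LEF factors (right), with colours for single genes and r1 to r3 for replicates. Wnt5b led the ligands in cumulus cells at 2 months and Wnt4 in mural cells, Sfrp4 made up 92.3 and 96.2% of the mural inhibitor sums, and the TCF/LEF sums were lowest in the mural libraries.

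Genes further down the pathway were lower in mural cells where they passed in the main model. Among 13 tested relay genes 0 passed as higher and 3 (23.1%) as lower, against 9.69% and 11.2% of all tested genes. Their median log2 fold change of -0.17 turned to 0.09 after rescaling to the same sum. Tnks, a tankyrase that promotes the breakdown of axin, was at 25.3 and 25.2 FPKM in mural cells against 54.7 to 71.4 in cumulus cells at 2 months (log2 fold change -1.25, adjusted p 0.00886 by limma). Among 7 tested nuclear partners 0 passed as higher and 4 (57.1%) as lower, against 9.69% and 11.2% of all tested genes (median log2 fold change -0.70). After rescaling to the same sum or median centring, 2 nuclear partners and 1 relay gene passed as lower. The same counts were found after quantile normalization. Tcf7 had means of 23.3 ± 0.871 FPKM (SD, n = 2) in mural cells against 54.98 ± 9.20 (SD, n = 3), a log2 fold change of -1.19 and an adjusted p of 0.00659 by limma. Tcf7l1, mostly a repressor of the same targets, had 11.7 ± 1.92 against 23.4 ± 4.98 FPKM (SD), a log2 fold change of -0.93 and an adjusted p of 0.0273 by limma. The co-activators Pygo2 and Bcl9l (log2 fold changes -0.70 and -0.76) and the destruction complex genes Axin1 and Gsk3a (-0.55 and -0.53) passed too, at adjusted p-values of 0.0374, 0.0390, 0.0469 and 0.0486 by limma. After rescaling to the same sum these 4 no longer passed, while Tcf7, Tcf7l1, Lrp5 and Tnks did. Of the 5 tested feedback targets 0 passed by limma, and 0 had an unadjusted p under 0.05, against 36.8% of all tested genes. Their median log2 fold change was -0.65, and the smallest p outside the 10 genes was that of Apcdd1 (log2 fold change -0.65, adjusted p 0.168). The direction depended on the setting. With no filter on low values 1 of 9 feedback targets passed as higher, and their median was 0.19, against -0.01 over all tested genes. Quantile normalization, or a fit of the compared groups alone, also gave 1 as higher. Library weights gave 1 as lower.

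**Figure D4:**
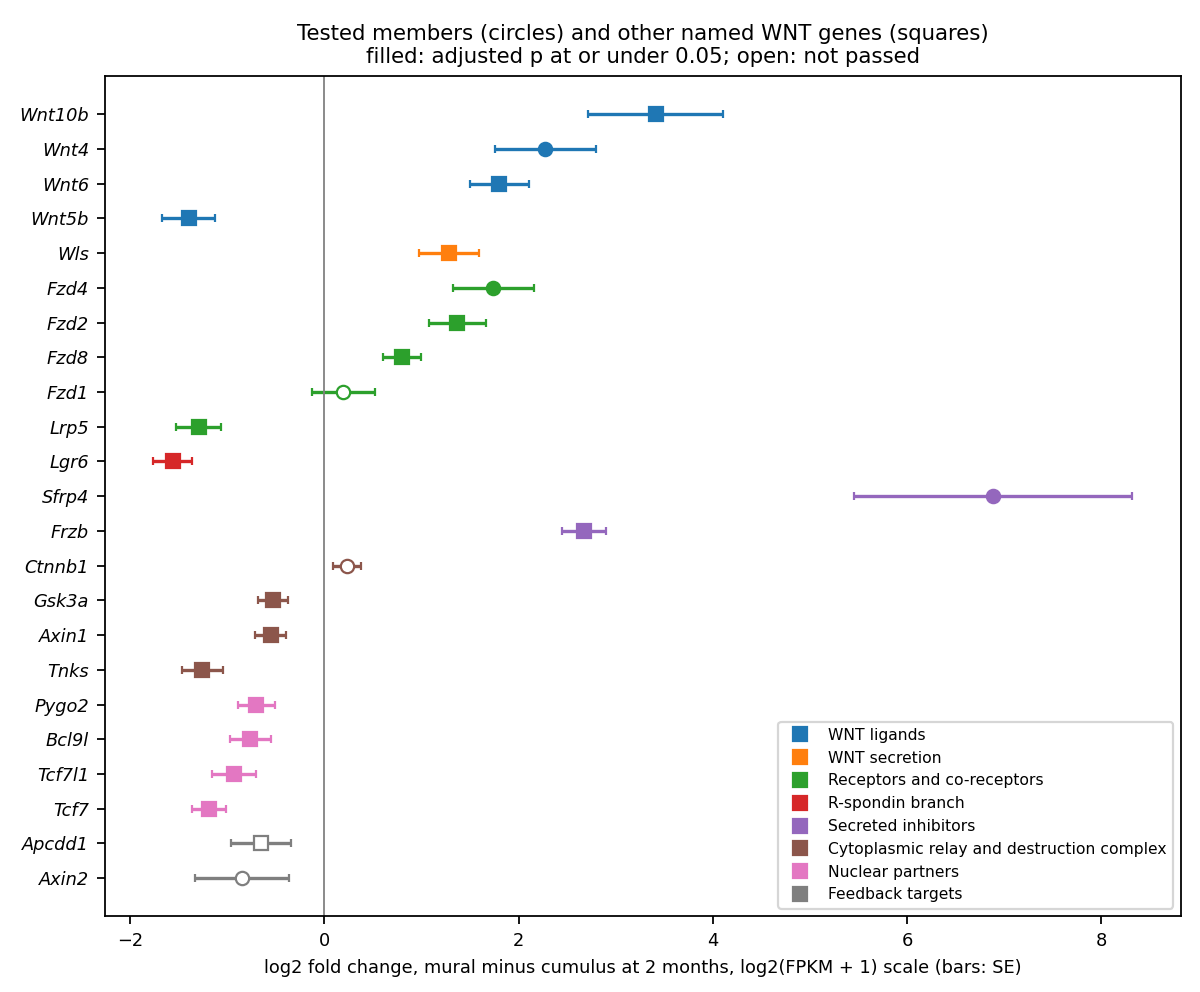
Log2 fold change of mural over cumulus cells at 2 months, on the log2(FPKM + 1) scale, for the tested WNT genes and the named genes of the pathway lists, with bars for the standard error, colours for the 8 lists, circles for the tested genes among the 10 and squares for others, filled where an adjusted p of 0.05 was passed and open where not. Sfrp4 had the highest value at 6.88, and Lgr6 the lowest at -1.56.

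With age, 0 of the 53 tested list genes passed by limma, and 11 had an unadjusted p under 0.05, a rule met by 13.9% of all tested genes. The list's median log2 fold change was 0.06, against -0.02 over all tested genes. Among the 6 tested members, only Wnt4 had all levels at 10 months outside the range at 2 months, a separation seen in the higher direction for 8.93% of all tested genes. The listed gene with the smallest p was Myc, a growth regulator and WNT target with many other inputs, at 72.7, 36.3 and 61.9 FPKM at 10 months against 12.2, 18.2 and 15.5 at 2 months. The groups did not overlap, but the log2 fold change of 1.79 did not pass (adjusted p 0.152 by limma). It passed with library weights (adjusted p 0.0467) and without replicate 2 at 10 months (0.00928). The mural libraries held 15.0 and 12.2 FPKM of Myc, below every library at 10 months. Tcf7l2, a TCF factor, had means of 9.52 FPKM at 10 months against 5.04 at 2 months (log2 fold change 0.75, adjusted p 0.281 by limma), and passed without replicate 2 at 10 months (0.0450). Lgr6 had means of 2.99 against 5.06 (-0.62, adjusted p 0.240). Frzb, at 2.24 against 1.06 FPKM, and Fzd8, at 5.75 against 2.70, had adjusted p-values of 0.269 and 0.196 by limma and did not pass.

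Mural cells at 2 months were also set beside cumulus cells at 10 months as levels, without a test. Of the 6 tested members, Fzd4 and Sfrp4 were higher in mural cells with no overlap and Axin2 was lower, while Wnt4, Fzd1 and Ctnnb1 overlapped. Over all tested genes, 23.0% were separated in the higher and 28.1% in the lower direction. The genes nearest to Wnt4 over the 10 libraries were Lamc3 and Hspg2, a laminin chain and the perlecan core protein of basement membranes (r = 0.974 and 0.971), and Hsd17b12 (r = 0.970). Hspg2 was at 14.6, 8.68 and 18.0 FPKM in replicates 1 to 3 at 10 months, so replicate 2 was the lowest of the 3 as it was for Wnt4.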

How the data were processed

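RNA was measured in 10 mouse libraries. The authors deposited FPKM values in 1 table, and TopHat2 2.1.0, Cufflinks 2.1.0 and the build mm9 are named, per the submitters' processing notes. Annotation, strand and depth, not given in the sources used here, are unknown, so no counting interval is given and low values are of unknown precision. A header line repeated within the table (1) was dropped, and 0 columns lacked a sample.

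Groups follow the labels. Tests used log2(FPKM + 1), on which fold changes of low genes come out too small. Genes with a mean of at least 1 FPKM over the 8 C57BL/6 libraries (12412) entered a model with a term per group in limma 3.58.1 (R 4.3.3), with two-sided p-values, Benjamini-Hochberg adjustment and a threshold of 0.05. The model was tested on simulated data. COC have 1 library per strain and no test. The labels do not say whether replicate numbers pair samples, so no pairing was used in the main model.

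The members and lists were chosen with earlier results of these data known. Named are the 10 members, up to 16 listed genes that passed per comparison, the listed gene with the smallest p where a list had none, and the 3 genes most correlated with each member whose mean was at least 5 FPKM. Marker genes were fixed in lists. Rspo2, Nkd1, Dkk3 and the ratios were chosen after their values were seen. Alternatives changed the pseudocount (0.1, 0.5), the filter (none, 5 FPKM), the scaling, the block, the weights, the groups fitted and the libraries. Promoter windows were read from RefSeq tables of GRCm38.p6, which is not the build of the FPKM table.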

Additional observations from a re-analysis of the deposited data

How the results depend on the processing

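For mural against cumulus cells at 2 months, 2599 genes passed, 5425 with library weights and 96 to 3251 when 1 library was left out (758 without mural replicate 1, 96 without mural replicate 2, 1208 and 1717 without cumulus replicates 2 and 1 at 2 months). Of the 6 tested members 3 passed, against 2599 of 12412 genes. With no filter on low values 5 of 10 passed, against 2721 of 18863 genes. That setting added Sfrp1 and Rspo1, which were at most at 0.383 FPKM in cumulus cells at 2 months. From 0 to 4 members passed when 1 cumulus library was left out, with 6 or 7 tested. Wnt4 kept its call in 18 of 20 alternatives, Sfrp4 in 17 of 20 and Fzd4 in 14 of 19. For age, 0 genes passed, 69 with library weights and 0 to 280 when 1 library was left out (280 without replicate 2 at 10 months), and 0 members passed under any alternative. An alternative chosen after seeing the data, without replicate 3 of both cumulus groups, gave 7 genes for age and 3110 for mural cells. It turned the age values of Fzd1 and Ctnnb1 to -0.134 and -0.024.

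Further values changed sign. For Fzd1 in mural cells quantile normalization gave -0.041. For Axin2 with age it gave -0.074, and leaving out 1 library gave -0.31 to 0.58. Ctnnb1 with age ranged from -0.0009179 to 0.1264 when 1 library was left out. None of these had passed, and the cause was not tested.

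Replicate numbers are shared between groups, and the labels do not say whether they mark a shared source. The correlations of same-numbered deviations were 0.00604, 0.118 and 0.147 for age, and 0.0322 and 0.214 for mural cells. At 10 months, replicate 1 correlated best with replicate 2 at 2 months (0.0128), and replicates 2 and 3 with their own numbers. In the mural group, which holds 2 libraries, the deviations of replicate 1 mirror those of replicate 2. These values cannot decide whether samples are paired. With the replicate number as a block, 3361 genes passed for mural cells and 0 for age, with 3 and 0 members. FPKM without depth limits what can be said of genes below 1 FPKM.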

Other observations

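Rspo2 and Nkd1, chosen after their values were seen, were also highest in the complexes. Rspo2, an R-spondin, was at 41.2 FPKM in BDF1 and 47.8 in DBA/2 complexes, at 2.26, 20.4 and listed at 0 in cumulus replicates 1, 3 and 2 at 2 months, and at 2.38 to 6.23 at 10 months. The library in which it was listed at 0 was the one with none of 7 oocyte markers at 1 FPKM. Nkd1, a feedback inhibitor of Dishevelled, was at 16.8 and 16.9 FPKM in the complexes and at 4.03, 1.16 and 10.8 in cumulus replicates 1 to 3 at 2 months, so it was detected in that library. The part of the oocyte in these levels was not tested.

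Wnt2 exceeded 1 FPKM in 1 library, cumulus replicate 3 at 10 months, with 5.01 FPKM. In that library 7 surface epithelium markers summed to 123 FPKM, against 71.1 and 61.8 in replicates 1 and 2 at 10 months, where Wnt2 was at 0.712 FPKM and listed at 0. All 7 markers were at 1 FPKM or more in that library and in both mural libraries, where Wnt2 was at 0.0876 and 0.198 FPKM. The sum was 51.3 and 32.4 FPKM in mural cells and 34.5 to 41.7 in the younger cumulus libraries. Single markers of this sum differed in direction. Krt8 was at 17.5 and 11.8 FPKM in mural cells against 22.4 to 30.8 in the younger cumulus libraries. Wt1 was also lower in mural cells. Krt7, Krt18, Krt19, Msln and Upk3b were each higher in both mural libraries than in every younger cumulus library. Krt19 was at 4.87 and 3.07 FPKM in mural cells and listed at 0 in those cumulus libraries. The part of surface epithelium in the Wnt2 level was not tested.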
